A study of Rattus norvegicus with 2 samples.

Results

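The Nrf2 antioxidant genes described here were Srxn1, Hmox1, Nqo1, Gclc, Gclm, Txnrd1, Slc7a11, Sqstm1, Osgin1 and Nfe2l2, 10 of the 36174 gene names on a rat expression array. The genes were chosen by name, after the large difference of Srxn1 between the arrays had been seen, so their differences are given as descriptions only. RNA came from cervical lymph nodes of male Sprague-Dawley rats aged 10 to 12 weeks, on 1 array of the control (C) group and 1 array of the restraint stress (RS) group. The RS rats lay on their backs, fastened to a wooden board, for 30 min (the sample labels give the restraint but not its length), and all rats received halothane and then a pentobarbital overdose before the nodes were taken. The sources do not say how many rats each array holds. With 1 array per group, no test between groups was possible, no p-value is given, and every value below describes 2 arrays. The arrays were checked against the node label: all 8 T cell, 6 B cell and 11 macrophage markers on the array were well above background in both.

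NRF2, the product of Nfe2l2, is a transcription factor that KEAP1 holds in the cytoplasm and delivers to a CUL3 ubiquitin ligase for destruction. Oxidants and electrophiles modify KEAP1, and NRF2 then enters the nucleus, pairs with a small MAF protein (MAFF, MAFG or MAFK) and binds antioxidant response elements (AREs), which BACH1 with the same MAF partners otherwise keeps repressed. The targets supply glutathione, thioredoxin and NADPH and break down heme, and in lymph nodes heme handling is a known task of the macrophages that take up red cells.

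Each gene was read by 60-base probes, of which the genes had 14 in 16 spots, none rejected as an outlier. The probes on which the main differences rest are printed, whole or, for Srxn1 and the brighter Slc7a11 probe, as the first 30 bases only. Capitals mark a stop codon as the last 3 bases of a probe, in a frame open up to there.
Srxn1 probe, first 30 bases: aaagcactttagcaggtcaaccaggactca
Hmox1 probe: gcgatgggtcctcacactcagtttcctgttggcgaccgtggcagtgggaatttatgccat
Nfe2l2 probe: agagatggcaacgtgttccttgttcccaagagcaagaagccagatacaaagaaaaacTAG
Nqo1 probe: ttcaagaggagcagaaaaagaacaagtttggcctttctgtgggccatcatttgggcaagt
Slc7a11 brighter probe, first 30 bases: agggtgaagtaggttctgtagttaatgact
Slc7a11 dimmer probe: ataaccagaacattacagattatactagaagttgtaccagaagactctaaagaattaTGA
By the deposited probe annotation (build rn4), the Srxn1 probe lay at chr3:142462543-142462602 on the forward strand. The Hmox1 probe lay at chr19:13969336-13969395 on the forward strand, the Nqo1 probe at chr19:37251727-37251786 on the reverse strand, and the Nfe2l2 probe at chr3:58367137-58367196 on the reverse strand. The Slc7a11 probes lay at chr2:139241468-139241527 and chr2:139248397-139248456 on the reverse strand, 6929 bases apart from start to start. The accession of all 14 probes carried the same symbol in the RefSeq gene table. The exon or UTR that holds each probe was not analysed here.

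Srxn1 stood apart from the other Nrf2 antioxidant genes. Of the 10 genes, 8 were screened, that is, well above background on at least 1 array, and 7 were so on both. Among these 8, 1 was higher by 2-fold or more on the RS array (Srxn1) and 1 was lower (Slc7a11), and 6 differed by less than 2-fold. Over all 21096 screened genes, 730 (3.46%) were 2-fold or more higher and 903 (4.28%) were 2-fold or more lower. The median log2 difference (RS minus C) over the 8 genes was 0.35, against 0.02 over all screened genes, and without Srxn1 it was 0.22. Nqo1 entered the 8 only through the RS array, where it was the brighter, and Gclm and Osgin1 are left out of the median. The median of the 8 became 0.60 when the measured ratio of Nqo1 replaced its lower bound.

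**Figure D1:**
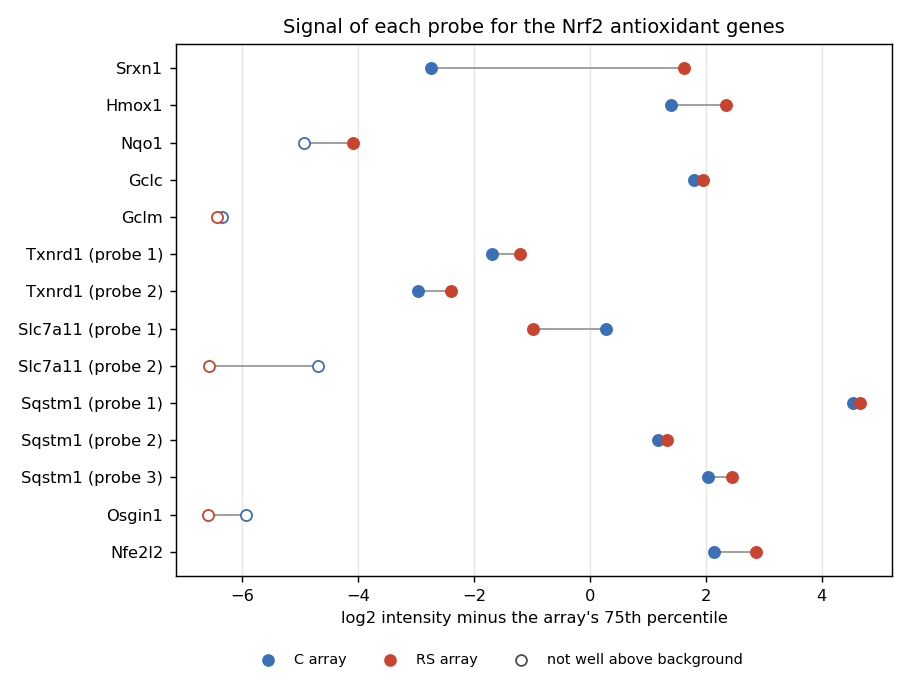
Normalized signal of every probe of the 10 genes on the C array (blue) and the RS array (red), on a log2 scale where 0 is the array's 75th percentile, with open circles for probes not well above background. Srxn1 moved from -2.74 to 1.62, the longest line among probes that were well above background on both arrays, and the brighter Slc7a11 probe moved the other way, from 0.28 to -0.99.

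Srxn1 encodes sulfiredoxin, the ATP-dependent enzyme that restores peroxiredoxins after peroxide has overoxidized their cysteine. Its single spot read 28.3 on the C array and 543 on RS, in units of scanner intensity. Before the correction of the scanner software the spot averaged 60.2 and 552 on the 2 arrays, with a local background of 20 on both, so the C value was low and the RS value far from background. After scaling, Srxn1 was 20.6-fold higher on the RS array, equal to 4.36 on the log2 scale, and the spot error of 0.23 covers the measurement of the spots and not the spread between rats. Only 0.0427% of the screened genes had a difference as high or higher, and among the 19214 genes well above background on both arrays Srxn1 ranked 4. With a model-based background correction (normexp) that compresses dim signals, the log2 difference was 2.81, still past 2-fold.

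The genes nearest to Srxn1 in the order of differences were of other kinds. Cxcl1, a neutrophil-attracting chemokine, was higher (20.5 on C and 624 on RS, 32.6-fold), as were Adgrl2, an adhesion receptor (17.9 and 387, 23.1-fold), and Hspa1a, the inducible HSP70 chaperone (46.1 and 931, 21.6-fold). Below it came Adamts4, an aggrecan-cleaving protease (26.5 and 426, 17.2-fold), and S100a8, a calcium-binding protein of neutrophils and monocytes (19.3 and 286, 15.9-fold). A second S100a8 probe read 2.27 on C and 6.41 on RS, not well above background on either array. A second Hspa1a probe read 7.26 on C, not well above background, and 32.6 on RS, a measured log2 ratio of 2.26. On its brighter probe Hspa1a differed from Srxn1 by less than the spot errors, so the order of these 2 genes is not settled. With 1 difference per gene, this closeness is the only measure of likeness the arrays allow.

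Hmox1 encodes heme oxygenase-1, which opens heme to biliverdin, iron and carbon monoxide. Its spot read 497 on C and 899 on RS, 1.94-fold higher, with 0.95 as the log2 difference and 0.20 as the spot error. This lay just under the 2-fold threshold, and 3.76% of the screened genes had a difference as high or higher. Nfe2l2, the gene of NRF2 itself, was read by 2 spots, with 834 and 832 on the C array and 1315 and 1254 on the RS array. The RS spots were both above the C spots, and the gene was 1.65-fold higher (log2 difference 0.72, spot error 0.14), with 5.96% of screened genes as high or higher. Under all 12 alternative settings Hmox1 stayed between 0.85 and 0.98 and Nfe2l2 between 0.62 and 0.75 on the log2 scale, short of 2-fold.

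The remaining enzymes of the set gave small or unmeasured differences. Txnrd1 encodes thioredoxin reductase, which keeps thioredoxin reduced with NADPH. Its brighter probe read 58.2 (C) and 76.0 (RS), a log2 difference of 0.48 (spot error 0.21), and its second probe read 24.2 and 33.3, a difference of 0.56. Both Txnrd1 probes were thus higher on the RS array by less than 2-fold. Gclc encodes the catalytic subunit of glutamate-cysteine ligase, the first step of glutathione synthesis. Its 2 spots read 672 and 647 on the C array and 671 and 697 on the RS array, so that they overlapped before scaling, and the log2 difference of 0.15 was about the spot error of 0.14. Gclm, the modifier subunit of the same ligase, read 2.30 and 2.04, not well above background on either array, with a probe of only 15% G and C. Osgin1, a growth inhibitor that responds to oxidative stress, read 3.07 and 1.84 and was not well above background either. No difference is given for these 2 genes, and a level too low for these probes cannot be told from a probe that performs poorly.

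Nqo1, the quinone reductase often used as the marker of NRF2 activity, was at the limit of the arrays. It read 6.20 on the C array, not well above background, and 10.3 on the RS array, where it was. The lowest signals well above background were 9.45 and 8.52, so the data bound the difference at a log2 value of at least 0.22 (at least 1.17-fold higher), and the ratio of the measured signals was 0.83 on the log2 scale with a spot error of 0.54. A difference of 2-fold in Nqo1 could not be called or dismissed at this signal.

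Sqstm1 encodes p62, the autophagy receptor that also draws KEAP1 away from NRF2. Its brightest probe read 4385 on C and 4457 on RS (log2 difference 0.12, spot error 0.20), a difference within the spot error. A second probe read 429 and 441 (0.14), and the probe designed on another transcript record read 775 and 969 (0.42, spot error 0.20). The 3 Sqstm1 probes therefore all lay above 0 and all under 2-fold.

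Slc7a11 went the other way from Srxn1. It encodes xCT, the exchanger that imports cystine for glutathione synthesis, and besides NRF2 the amino acid factor ATF4 is known to act on it. The brighter probe read 229 on the C array and 89.0 on the RS array, 2.41-fold lower on RS, with -1.27 as the log2 difference and 0.21 as the spot error. The dimmer probe, at the stop codon, read 7.27 and 1.86 and stayed under the background criterion on both arrays, so a single probe carries the value, and its average with the dimmer one gave -1.57. With normexp the difference was -0.87, no longer past 2-fold. None of the 14 probes carried 6 or more A and G bases in alternation, a type of probe that made up many of the lower calls: without such probes 541 genes, not 903, were 2-fold or more lower. Of 19 screened genes of the amino acid response none was past 2-fold, against 3.46% higher and 4.28% lower among all screened genes. Their median log2 difference was 0.14, with 13 above 0 and 6 below. Atf4 was at 0.45 (spot error 0.06), Chac1 at 0.15 (0.21) and Asns at -0.57 (0.14). A part of ATF4 in the value of Slc7a11 was not tested.

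Dim genes passed 2-fold more often than bright ones, so each member is set beside genes of like signal. In the second quartile of signal from the dimmest, which held Srxn1, Txnrd1 and Slc7a11, 3.79% of genes were 2-fold or more higher and 4.25% lower. In the third, with Hmox1 and Gclc, these shares were 2.33% and 2.98%, and in the brightest, with Sqstm1 and Nfe2l2, 1.52% and 2.26%. In the dimmest quartile, where Nqo1 lay, they were 6.20% and 7.64%.

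**Figure D2:**
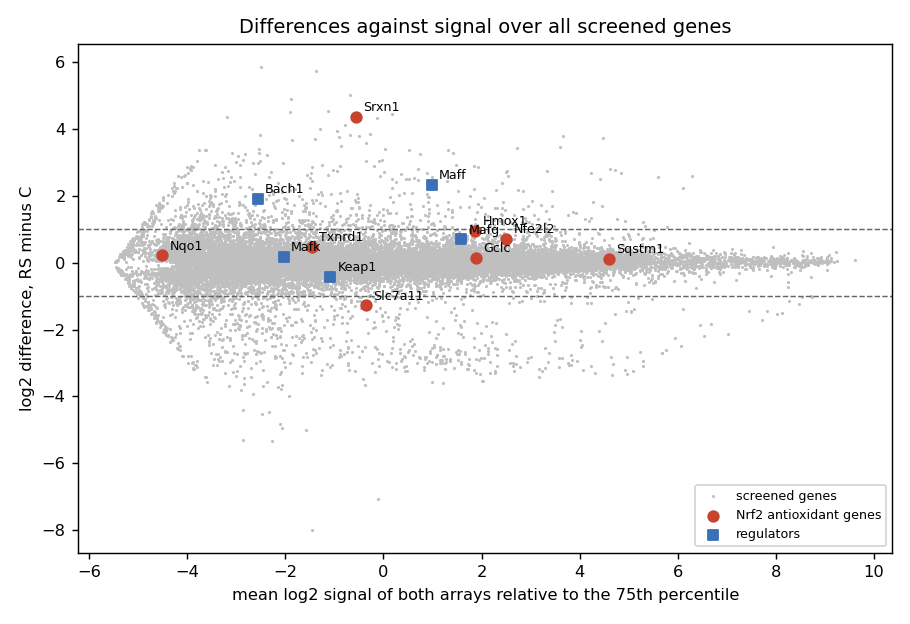
Log2 difference (RS minus C) against mean log2 signal for the screened genes (grey), the 8 measured Nrf2 antioxidant genes (red, with Nqo1 at its lower bound) and 5 regulators (blue squares), with dashed lines at 2-fold. Srxn1 lies far above the cloud at middle signal, Maff and Bach1 lie above the 2-fold line, and Slc7a11 lies just below the lower line.

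Among the genes that control NRF2, the partner Maff and the repressor Bach1 were higher on the RS array while Keap1 was not. Maff, a small MAF protein, read 166 (C) and 780 (RS), 5.02-fold higher (log2 difference 2.33, spot error 0.20), and its difference was at least 1.99 under each setting run for it. Its relatives differed less. Mafg read 443 and 674 (0.70) with a second probe at 171 and 211 (0.41), and Mafk read 43.3 and 45.9 (0.18, spot error 0.22). Bach1, which competes with NRF2 for the same sites, read 16.5 and 58.0 on its brighter probe, 3.76-fold higher (log2 difference 1.91, spot error 0.29), and 10.2 and 23.1 on the other (1.28). These are dim signals, and with normexp Bach1 was at 0.68, short of 2-fold. Keap1 read 103 and 72.1 (-0.41, spot error 0.21) and Cul3 was at -0.66 on its brighter probe, both lower by less than 2-fold. The other of the 2 Cul3 probes was higher on the RS array after scaling. In all, 2 of 12 screened regulators were 2-fold or more higher and none lower, against 3.46% and 4.28% of all screened genes. The median of the regulators was 0.06.

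Most other screened genes of the pathways that NRF2 feeds were within 2-fold (78 of 88), and so were most of all screened genes (19453 of 21096). Over the 6 lists of regulators, glutathione, thioredoxin, NADPH, heme and iron, and other detoxification genes, 96 genes were on the array and 88 were screened. Of these 88, 9 were 2-fold or more higher and 1 was lower, against 3.46% and 4.28% of all screened genes. The median over the 88 was 0.09. Among the 9 higher genes, Akr1b10 and Abcc2 entered the screen only through the RS array. With normexp 4 of the pathway genes were past 2-fold. In the glutathione list, 2 of 25 were higher: Mgst1, a membrane-bound glutathione transferase (203 and 464, 2.44-fold), and Gstm5, a soluble one (13.9 and 30.3, 2.34-fold; with normexp 0.41 on the log2 scale). Gsr, which reduces oxidized glutathione, read 39.4 and 30.5 (log2 difference -0.27, spot error 0.24).

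None of 13 screened genes of the thioredoxin list passed 2-fold. Prdx1, a peroxiredoxin that sulfiredoxin repairs, read 2138 and 2600 (0.38, spot error 0.06). Txn1, thioredoxin itself, read 12262 and 13308 on the brighter of its 2 probes (0.22, spot error 0.06). The other Txn1 probe was not higher on the RS array after scaling. Among 8 genes that supply NADPH, 1 was higher: Me1, cytosolic malic enzyme (110 and 221, 2.15-fold; with normexp 0.80 on the log2 scale, under 2-fold).

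Among 12 screened genes of the heme and iron list, none passed 2-fold. Blvrb, a biliverdin reductase, read 427 and 393 (-0.02), and the ferritin chains Fth1 (39591 and 38206, 0.05) and Ftl1 (51708 and 50853, 0.07) were nearly level, with spot errors of 0.20. The highest difference in this list was that of Cd163, the hemoglobin scavenger receptor of macrophages, at 0.44.

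In the detoxification list, 4 of 18 screened genes were 2-fold or more higher and 1 was lower, against 3.46% and 4.28% of all screened genes. Akr1b10 and Abcc2 entered the screen only through the RS array, where they were high, and of the 16 genes well above background on both arrays 2 were higher. Akr1b8, an aldose reductase relative, read 28.0 and 150 (5.75-fold), and its second probe read 5.44 and 40.8, well above background only on RS. Akr1b10, a close relative of Akr1b8 that may share its signal, read 2.33 and 41.4 on 1 probe, at least 4.69-fold higher, while its other probe (6.20 and 7.48) met the background criterion on neither. Abcc2, an exporter of glutathione conjugates, read 8.86 and 42.1, at least 4.77-fold higher, though with normexp only 0.62 on the log2 scale. Sod3, the secreted superoxide dismutase, read 180 and 653 (3.88-fold) and was named after its value was seen. Akr7a3, an aflatoxin aldehyde reductase, read 24.6 and 9.70, 2.37-fold lower, but -0.29 on the log2 scale with normexp.

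**Figure D3:**
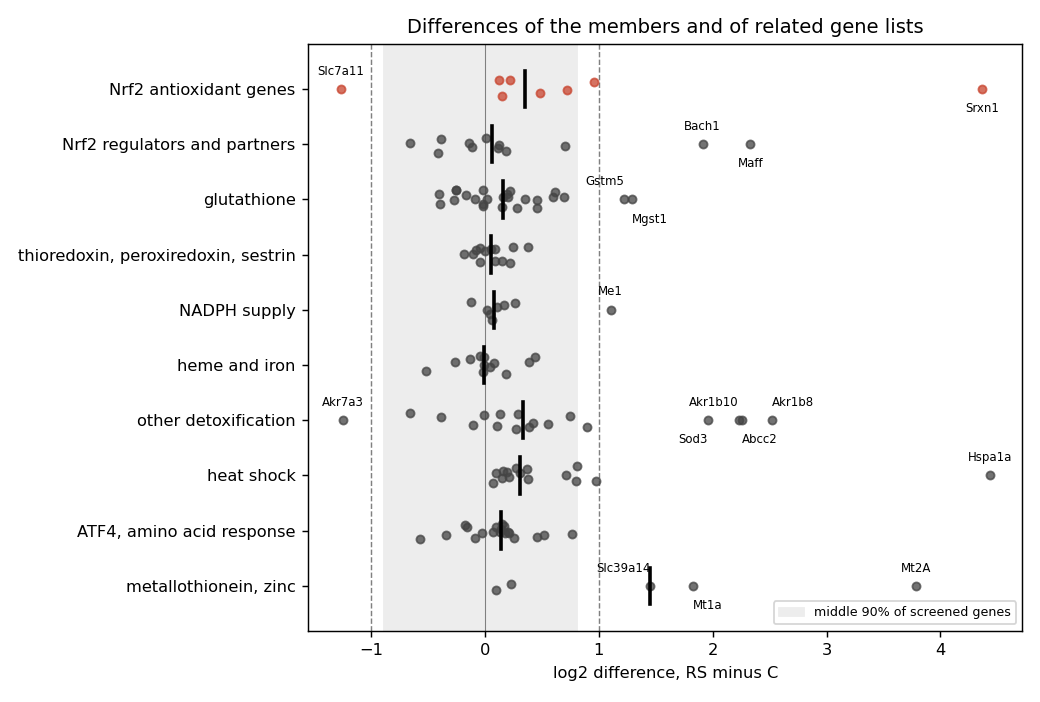
Log2 difference (RS minus C) of each screened gene in the Nrf2 antioxidant set (red) and in 9 other lists (grey), with the list median as a black bar, the middle 90% of all screened genes shaded, and dashed lines at 2-fold. Genes past 2-fold are named, and those measured only on RS (Akr1b10, Abcc2 and Slc39a14) stand at their lower bound. Srxn1 at 4.36 and Hspa1a at 4.43 lie farthest to the right.

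Markers of some other cell types also differed between the arrays. Over all screened genes, 3.46% were 2-fold or more higher and 4.28% lower. All 6 screened erythrocyte markers of 8 on the array were 2-fold or more higher on RS, with a summed level, in units of the 75th percentile, of 52.9 on C and 317 on RS, and Slc4a1 and Epb42 were not well above background. Of 10 fat cell markers 8 were screened and 6 were 2-fold or more higher, with sums of 51.0 and 128, and Plin1 and Pck1 were not well above background. Of 8 neutrophil markers 4 were screened and 2 were 2-fold or more higher, S100a8 and S100a9, with sums of 0.648 and 4.61 over the list. The other screened neutrophil markers, Mmp8 (32.0 and 22.6, log2 difference -0.41) and Csf3r (18.6 and 18.8, 0.11), were within 2-fold, and Mpo, Elane, Camp and Ngp were not well above background. Macrophage sums were 339 and 334, with 11 of 11 markers screened and none past 2-fold, T cell sums were 167 and 149, and B cell sums 86.5 and 87.9. None of the screened endothelial (8), salivary gland (1) or skeletal muscle (5) markers was past 2-fold. In such bulk samples fewer cells of a type and less RNA per cell cannot be told apart, and the part of erythrocytes, fat cells and neutrophils in the values of Srxn1, Hmox1 and the others was not tested.

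The promoters of the genes were read for the letters of the ARE core, TGACNNNGC or TGAGNNNGC, and of the AP-1 site TGAGTCA, on both strands, in RefSeq windows of the GRCr8 assembly from 250 bases before to 50 after each start. Windows were held for 9 of the 10 genes (10 windows, with 2 for Txnrd1, and none for Hmox1). Capitals mark the letters of an ARE core or of an AP-1 site. The Srxn1 window is shown up to the last base of its core at the start, and those of Gclm and Txnrd1 around their single core.
Srxn1, chr3:161064562-161064815, forward strand: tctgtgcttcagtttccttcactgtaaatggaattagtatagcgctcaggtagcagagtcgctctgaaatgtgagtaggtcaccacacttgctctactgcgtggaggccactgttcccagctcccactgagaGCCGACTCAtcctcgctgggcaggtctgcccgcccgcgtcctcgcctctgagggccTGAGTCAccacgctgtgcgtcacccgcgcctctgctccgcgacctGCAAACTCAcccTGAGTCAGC
Gclm, chr2:213031947-213031987, forward strand: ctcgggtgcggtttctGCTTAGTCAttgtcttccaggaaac
Txnrd1, chr7:22755958-22755998, reverse strand: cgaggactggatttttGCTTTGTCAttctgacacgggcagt
Srxn1 had 3 ARE cores, at -118 to -110 and -17 to -9 on the reverse strand and at -5 to 4 on the forward strand. It had 2 AP-1 sites, at -62 to -56 and at -5 to 2, the latter inside the third ARE core, so those letters count for both motifs. An ARE core stood in 27.1% of all 33469 windows and 2 or more in 4.39%, and an AP-1 site in 4.63% and 2 or more in 0.170%. Besides Srxn1, single ARE cores lay in the windows of Gclm (-172 to -164), Txnrd1 (-78 to -70 of 1 start) and Nfe2l2 (39 to 47), and no window of the other members held one. Thus Gclm, with a core, was not measurable, and Txnrd1 and Nfe2l2, with a core each, were under 2-fold. No other member held the AP-1 letters, and none held the cyclic AMP element TGACGTCA (1.83% of all windows). The heat shock element (0.798% of all windows) was found among the members only in Osgin1, and the NF-kB motif (30.5% of all windows) in Gclc, Gclm and Sqstm1. A match is a run of letters and not evidence of binding, and enhancers outside these windows were not read.

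**Figure D4:**
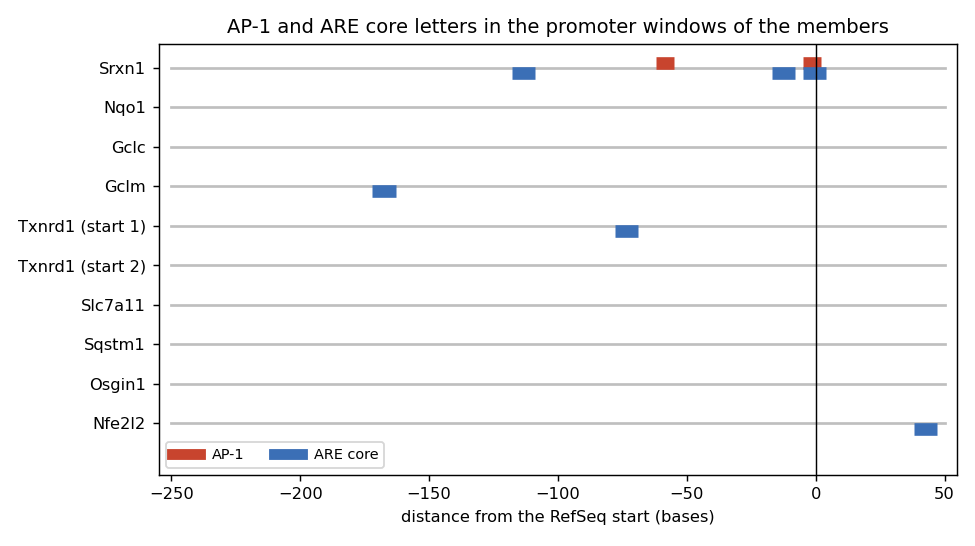
Positions of the ARE core (blue) and AP-1 (red) letters in the 10 promoter windows, as distance in bases from the RefSeq start (vertical line). Srxn1 carries 3 ARE cores and 2 AP-1 sites, Gclm, Nfe2l2 and 1 start of Txnrd1 carry 1 ARE core each, and the other windows carry neither.

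The differences of the members were then compared over 12 other ways of processing. Srxn1 ranged from 2.81 to 4.39 on the log2 scale and was the 1 member past 2-fold higher in every one of them. No member changed sign in any, and of 83 values for single members besides Srxn1, 78 stayed within the spot error.

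**Figure D5:**
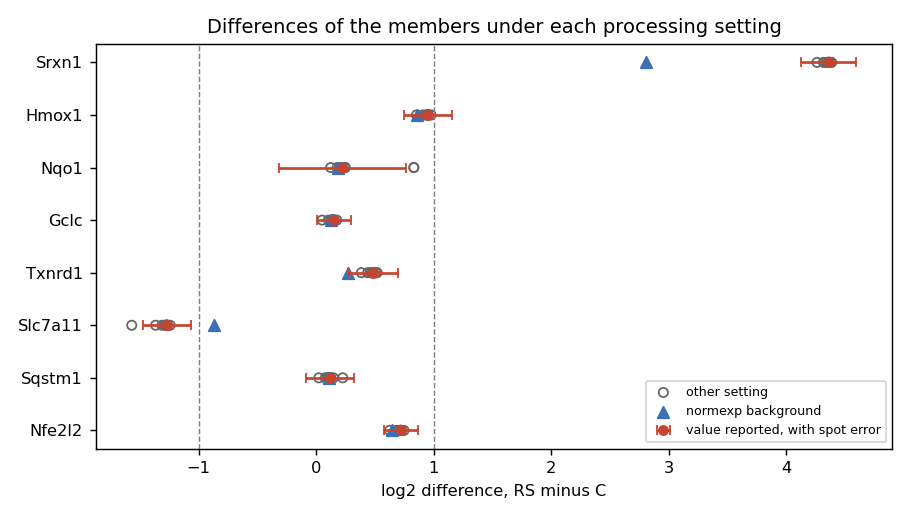
Log2 difference (RS minus C) of the 8 screened genes as reported (red, with the spot error as bars), under normexp background correction (blue triangles) and under the other settings (open circles), with dashed lines at 2-fold. The values of Hmox1, Gclc, Sqstm1 and Nfe2l2 cluster within the bars, whereas normexp moves Srxn1 to 2.81 and Slc7a11 to -0.87.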

How the data were processed

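Total RNA was extracted with ISOGEN, labeled with Cy3 and hybridized to the SurePrint G3 Rat GE 8X60K array, and spots were read by the authors with Feature Extraction 11.5.1.1. The deposited intensity values are background-subtracted and not normalized between arrays. The deposited log2 table was on the scale of a 75th percentile shift per array (100% of 45598 probes within 0.1 of the values computed here, medians -3.523 and -3.551) and was used as an alternative. Both arrays lay on 1 slide from 1 scan; the scan date in the header precedes the animal work the paper dates, and the scanner model differs from the one it names.

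Control and outlier spots were left out, log2 intensities were averaged per probe, and the 75th percentile over probes (189 on C, 176 on RS) was subtracted, following the percentile shift of the methods. No spot was saturated. A gene was represented by its brightest probe. A gene well above background on 1 array only was given a bound against the floor of the dim array. Spot errors combine those the software reports for both arrays. The threshold was 2-fold. Precision is limited by having 1 array per group. Members, lists and settings were chosen with earlier results of these data known. Named genes were all members with every probe, every gene past 2-fold in a list with up to 4 (otherwise the 3 largest each way), 12 regulators and enzymes whatever their value, and the 3 genes on each side of Srxn1 in the order of differences; some genes that the rule selects are left out. Alternatives covered scaling, background correction, filters, probe choice, outlier spots and the deposited table. Python 3.11.15, numpy 2.4.6, pandas 2.3.3, matplotlib 3.10.9, R 4.3.3 and limma 3.58.1 (normexp, offset 50) were used, and the steps were tested on simulated data.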

Additional observations from a re-analysis of the deposited data

How the results depend on the processing

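No paired analysis was possible because C and RS are single arrays. Normexp background correction moved the most values: Srxn1 to 2.81, members 2-fold or more lower to 0, screened genes to 234 higher and 378 lower, and pathway genes past 2-fold to 4. Screened genes lower numbered 601 when both arrays had to be well above background, and 541 without probes of alternating A and G, an alternative chosen after seeing the data. Without a background filter 2031 were higher and 2148 lower. The ratio in place of the bound put the members' median at 0.60. Srxn1 was past 2-fold in each of the 12 alternatives, and no member changed sign. The spread between rats is unknown, and Gclm, Osgin1 and, on the C array, Nqo1 were limited by signal over background.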

Other observations

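Other stress gene groups are given for comparison, as values. In the heat shock list 15 of 17 genes were screened, with a median log2 difference of 0.30, and all 15 lay above 0 on their brightest probe. Not every probe did: after scaling, 2 of 3 were higher on RS for Hspd1, 1 of 2 for Hspa4l and 1 of 2 for Hsf1. Over all 21096 screened genes, 10991 lay above 0 and 10095 below. Not all of the 15 exceeded their spot error, as Hsf1 was at 0.07 (spot error 0.20). Only Hspa1a was 2-fold or more higher, from 46.1 on C to 931 on RS on its brighter probe. Its second probe read 7.26 and 32.6 and was well above background only on RS. The co-chaperone genes Bag3 (1048 and 1603, 1.64-fold) and Dnaja1 (1035 and 1684, 1.74-fold) and the small chaperone gene Hspb1 (124 and 227, 1.96-fold) were short of 2-fold; these were chosen after their values were seen.

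Of 5 screened genes in the metallothionein and zinc list, 3 were 2-fold or more higher, against 3.46% of all screened genes. Slc39a14 entered the 5 only through the RS array. Of the 4 genes well above background on both arrays, Mt2A and Mt1a were 2-fold or more higher. Mt2A, a metal-binding protein that zinc and glucocorticoids are known to induce, read 647 and 8326 (13.8-fold), and Mt1a read 1944 and 6428 (3.54-fold). Slc39a14, a zinc and iron importer, read 9.75 and 24.9 and was well above background on RS only, at least 2.73-fold higher. Mtf1, the zinc-sensing transcription factor of metallothionein genes, read 271 and 270.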
